A study of Mus musculus with 24 samples.

Results

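The adrenal glands of intact male mice with a conditional knockout of Prkar1a were compared with those of intact male controls. The samples were chosen by their labels: 4 arrays of knockout (KO) and 4 arrays of control (WT) intact males, 8 of the 24 arrays of the series. Each array holds RNA of whole adrenal gland of a mouse aged 7 months on a mixed sv129-C57Bl/6 background, labelled as a biological replicate. KO intact males were Prkar1a fl/fl, carried 1 copy of Cre in the Cyp11b2 locus (cre/+) and were mTmG/mTmG. WT intact males were also Prkar1a fl/fl and mTmG/mTmG but carried no Cre, so an effect of the Cre insertion and an effect of losing Prkar1a cannot be told apart here. The other arrays are used only as a comparison. KO males gonadectomised (GDX) for the last 2 months had the genotype of the KO intact males. WT GDX males were of mixed genotype: array 1 lacked Cre, arrays 2 and 3 carried Cre but no floxed Prkar1a (array 2 with mTmG/+), and array 4 carried Cre and fl/+. KO females had the genotype of the KO intact males, and WT females carried Cre and 1 floxed allele, all mTmG/mTmG.

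Prkar1a encodes the type I alpha regulatory subunit of protein kinase A (PKA), which keeps the catalytic subunits inactive until cyclic AMP binds. In the adrenal cortex ACTH acts through cyclic AMP and PKA on glucocorticoid synthesis, and in humans inactivating PRKAR1A mutations cause Carney complex, in which pigmented nodules of the adrenal cortex produce cortisol. Cyp11b2 encodes aldosterone synthase and is expressed in the zona glomerulosa, the outer layer of the cortex. In mice the descendants of glomerulosa cells move inward and become zona fasciculata cells, so a Cre driven from Cyp11b2 comes to act in both layers. The innermost cortical layer of the mouse, the X-zone, expresses Akr1c18 and regresses in males at puberty. The mTmG reporter marks recombined cells but was not read here.

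The values are log2 RMA signals, in which a difference of 1 is a doubling. Of 21957 genes with a probe set of their own, 14411 passed the filter of log2 over 5 in at least 4 of the 24 arrays. A gene was called at a limma adjusted p under 0.05. Median signal per array was 5.21 to 5.28, and Pearson's r across probe sets between arrays of 1 group was 0.9901 to 0.9938. All 8 glands read as male adrenal: Eif2s3y of the Y chromosome was at 8.79 to 9.11 and Xist at 3.14 to 3.54. Star, which moves cholesterol into mitochondria, was at 12.92 to 13.12, and the glucocorticoid enzyme gene Cyp11b1 at 12.73 to 12.91. The medulla marker Th, tyrosine hydroxylase, was at 10.42 to 11.36, so both parts of the gland were present.

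Prkar1a itself read 6.89, 8.08, 8.48 and 8.13 in KO arrays 1 to 4, against 8.89, 8.72, 8.74 and 8.91 in WT arrays 1 to 4. All KO arrays lay below all WT arrays, and KO array 1 was far below the other KO arrays. The mean was 7.89 ± 0.69 in KO and 8.82 ± 0.10 in WT (SD, n = 4 each). The log2 change was -0.92 ± 0.23 (± standard error from limma, as everywhere below), or a KO level 0.527 times that of WT. It did not pass the test over all genes (adjusted p 0.16), and passed without KO array 3 (adjusted p 0.0499). Without KO array 1 the change was -0.59. The exact two-sided permutation test of the 4 against 4 values gave p = 0.0286, the smallest p it can give. Whole-gland RNA also holds cells in which the Cre does not act, and which part of Prkar1a the probe set reads relative to the deleted stretch was not tested.

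Cyp11b2, whose locus carries the Cre, read 9.91, 11.09, 10.69 and 10.40 in KO arrays 1 to 4, against 11.80, 11.01, 11.55 and 11.54 in WT arrays 1 to 4. The groups overlapped through KO array 2 and WT array 2. The change was -0.95 ± 0.36 (adjusted p 0.523; exact two-sided permutation p = 0.0571), so it did not pass either test. KO mice carry Cre in 1 copy of this locus and WT intact males carry none, so an effect of the insertion on Cyp11b2 itself cannot be told apart. In bulk RNA a loss of glomerulosa cells and less Cyp11b2 RNA per cell cannot be told apart, and the same holds for every cell type below.

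**Figure D1:**
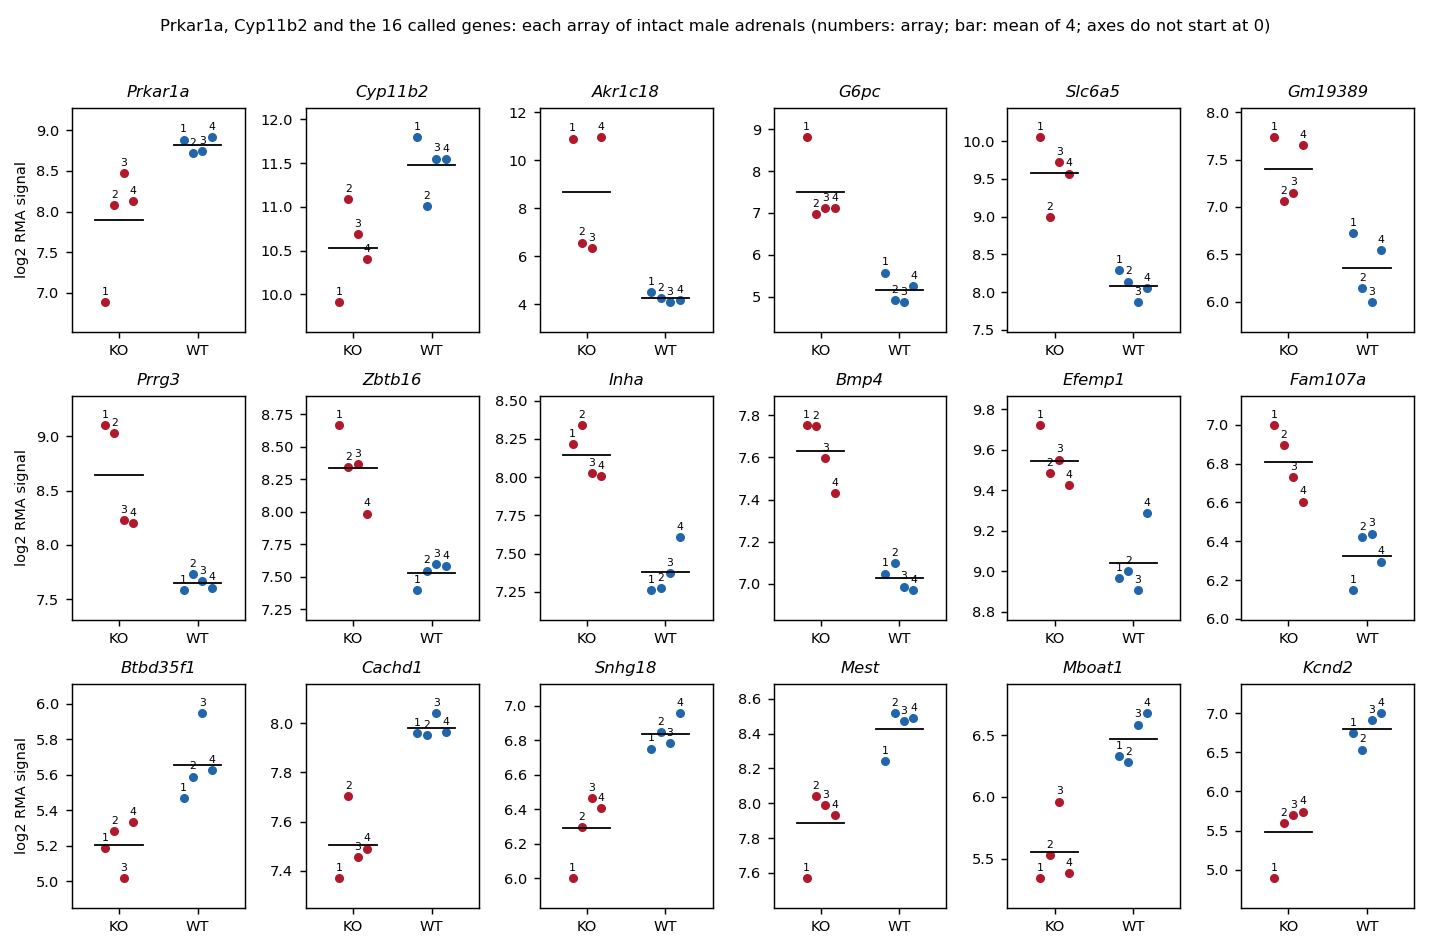
Log2 RMA signal (vertical axes, each with its own range that does not start at 0) of Prkar1a, Cyp11b2 and the 16 called genes in each array, KO left and WT right, with array numbers beside the points and a bar at the mean of 4. The 2 groups do not overlap in any of the 16 called genes; KO array 1 is the lowest KO array for Prkar1a, Cyp11b2 and Kcnd2 and the highest for G6pc and Slc6a5, while for Akr1c18 KO arrays 1 and 4 stand apart from KO arrays 2 and 3.

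In all, 16 of 14411 genes were called (0.111%): 10 rose in KO (0.0694%) and 6 fell (0.0416%). The genes that rose were the X-zone gene Akr1c18, the glucose-6-phosphatase gene G6pc, the glycine transporter gene Slc6a5, the secreted factors Inha and Bmp4, the matrix gene Efemp1, the transcription factor gene Zbtb16, and Prrg3, Fam107a and Gm19389. Those that fell were the potassium channel gene Kcnd2, the acyltransferase gene Mboat1, the imprinted gene Mest, the calcium channel accessory gene Cachd1, Btbd35f1 and the non-coding Snhg18. In all 16 the 4 KO arrays lay wholly on 1 side of the 4 WT arrays. The same was true of 642 of all genes tested (4.45%), 328 higher (2.28%) and 314 lower in KO (2.18%). At an unadjusted p under 0.05 there were 1080 genes (7.49%), and 13 genes were at least 2-fold higher (0.0902%) and 10 at least 2-fold lower in KO (0.0694%). These calls rest on a spread estimated from all 24 arrays: fitted on only the 8 intact male arrays, the count by limma was 0 (1088 genes had an unadjusted p under 0.05), and the adjusted p of the 16 lay between 0.104 and 0.318. Without KO array 1 the count was 4. Without WT array 3 it was 8, and without WT array 4 it was 9. Bmp4, Slc6a5, Mboat1 and Kcnd2 stayed called whichever 1 of the 8 arrays was left out.

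Akr1c18 encodes 20-alpha-hydroxysteroid dehydrogenase, which inactivates progesterone. It read 10.90, 6.57, 6.36 and 10.96 in KO arrays 1 to 4, against 4.51, 4.25, 4.10 and 4.19 in WT arrays 1 to 4. KO arrays 1 and 4 were far above KO arrays 2 and 3, and all of them were above the WT arrays. The change of 4.43 ± 0.73 (adjusted p 0.0103, but 0.0672 without KO array 1) was the largest rise of any gene tested. All WT arrays lay under the filter level of 5, so the size of the rise is uncertain. Thrb, a thyroid hormone receptor gene also used as an X-zone marker, differed by -0.05, and the third marker on that list did not pass the filter.

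G6pc encodes the catalytic subunit of glucose-6-phosphatase, which releases free glucose at the end of gluconeogenesis, and its liver gene is induced through cyclic AMP. It read 8.81, 6.98, 7.11 and 7.11 in KO arrays 1 to 4, against 5.58, 4.91, 4.87 and 5.26 in WT arrays 1 to 4. KO array 1 stood above the other KO arrays, which were close together, and 2 WT arrays were under 5. The rise was 2.35 ± 0.40 (adjusted p 0.0145), and the call was lost without KO array 1, WT array 2 or WT array 3 (adjusted p 0.0549 to 0.0686). Of the 20 tested genes of glucose metabolism it was the only one called, 8 being higher and 12 lower in KO (median -0.07, against -0.01 over all genes tested). Slc37a4, which carries glucose-6-phosphate to the enzyme, differed by -0.04 and the related G6pc3 by -0.05. Ldha, lactate dehydrogenase A, was the other non-overlapping member, at -0.47. Hk2 (-0.59), Pygl (-0.64) and Slc2a4 (-0.49), genes of glucose phosphorylation, glycogen breakdown and insulin-dependent glucose uptake, overlapped between the groups. These 3 were at their highest in WT array 2, the array in which the adipocyte genes described below were also highest.

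Slc6a5 encodes GlyT2, the glycine transporter of inhibitory neurons. It read 10.05, 9.00, 9.72 and 9.57 in KO arrays 1 to 4, against 8.29, 8.14, 7.87 and 8.05 in WT arrays 1 to 4. Even the lowest KO array, array 2, was well above the highest WT array, and the rise was 1.498 ± 0.23 (adjusted p 0.00547), which is a 2.82-fold higher level. The other 6 tested members of the SLC6 transporter list lay between -0.13 and 0.45 and were not called. The highest of them was Slc6a4, the serotonin transporter gene, at 8.92, 9.15, 9.50 and 9.11 in KO arrays, against 8.45, 8.99, 8.66 and 8.78 in WT arrays.

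Promoter windows of the called genes are shown because PKA acts on transcription through CREB, which binds the cyclic AMP response element (CRE). RefSeq windows (build GRCm38.p6, 250 bases before to 50 bases after a transcript start) were on hand for 13 of the 16 called genes. The full CRE, TGACGTCA, was in the window of 0 of these 13, against 3.27% of the tested genes that have a window. Its shorter core TGACG, searched on both strands, was in 3 of 13 (Slc6a5, Fam107a and Snhg18), against 33.0%. The variant TTACGTAA, a motif added after the G6pc window had been seen, was in G6pc alone, against 0.197%. The SF-1 site CAAGGTCA, of the steroidogenic transcription factor Nr5a1, was in 0 of 13, against 1.32%. A match is a description of letters only. The windows below are written 5′ to 3′ in the sense of the gene, with the match in capitals. That of G6pc is chr11:101367466-101367765 on the plus strand, with the variant starting 162 bases before the start. That of Slc6a5 is chr7:49910049-49910348 on the plus strand, with the core 34 bases before the transcript start. This window lies within the Slc6a5 gene, which begins at base 49906984 in the annotation used. That of Fam107a is chr14:8317558-8317857 on the minus strand, with the core on the opposite strand (CGTCA as printed) 46 bases before the start. Slc6a5 and Fam107a also have windows at other transcript starts, which hold no match and are not shown.
G6pc: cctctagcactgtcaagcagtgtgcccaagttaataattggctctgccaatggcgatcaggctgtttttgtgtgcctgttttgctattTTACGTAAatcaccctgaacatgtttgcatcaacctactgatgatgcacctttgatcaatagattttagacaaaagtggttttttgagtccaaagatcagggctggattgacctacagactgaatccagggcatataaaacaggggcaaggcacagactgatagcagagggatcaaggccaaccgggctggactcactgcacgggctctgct
Slc6a5: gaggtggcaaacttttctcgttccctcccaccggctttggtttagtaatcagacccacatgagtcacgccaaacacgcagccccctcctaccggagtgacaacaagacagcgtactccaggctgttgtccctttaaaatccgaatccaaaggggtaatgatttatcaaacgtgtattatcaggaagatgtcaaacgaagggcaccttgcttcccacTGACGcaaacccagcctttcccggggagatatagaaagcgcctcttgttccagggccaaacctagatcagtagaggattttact
Fam107a: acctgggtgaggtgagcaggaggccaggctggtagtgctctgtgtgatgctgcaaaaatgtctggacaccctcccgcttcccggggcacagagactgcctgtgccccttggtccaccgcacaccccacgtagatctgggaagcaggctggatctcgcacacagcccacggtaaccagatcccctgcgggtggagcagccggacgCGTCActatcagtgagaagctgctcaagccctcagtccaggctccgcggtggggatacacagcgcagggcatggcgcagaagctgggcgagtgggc

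Among secreted factors, Inha and Bmp4 rose. Inha encodes the alpha subunit of inhibin, the antagonist of activins. It read 8.22, 8.34, 8.03 and 8.005 in KO arrays 1 to 4, against 7.26, 7.27, 7.37 and 7.61 in WT arrays 1 to 4. Its rise was 0.77 ± 0.12 (adjusted p 0.00774, but 0.0521 without KO array 1). Bmp4, a ligand of the bone morphogenetic protein family, read 7.75, 7.75, 7.60 and 7.43 in KO arrays, against 7.05, 7.10, 6.99 and 6.97 in WT arrays. The WT arrays were close together and all below the KO arrays, and the rise was 0.60 ± 0.09 (adjusted p 0.00547). These were the only called members of the 24 tested genes of inhibins, activins and BMPs, of which 10 were higher and 14 lower in KO (median -0.03). The activin beta subunit genes Inhba and Inhbb differed by -0.05 and 0.12, and the activin-binding follistatin gene Fst by -0.05. Of the BMP ligands Bmp2 differed by -0.17, Bmp6 by 0.29 and Bmp7 by -0.09. Id1, Id2 and Id3, textbook targets of BMP signalling, differed by -0.62, -0.37 and -0.09 and were not called. For Id1 the values were 7.02, 7.16, 7.35 and 6.76 in KO arrays, against 7.47, 7.29, 7.69 and 8.33 in WT arrays, so the groups overlapped. Of the gonadal-like genes tested, Inha was the only one called of 10, and Gata4 (0.04), Amh (0.01) and Foxl2 (-0.08), which mark gonadal somatic cells, lay near 0.

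Zbtb16, a zinc finger transcription factor gene (PLZF) known as induced by glucocorticoids, read 8.66, 8.34, 8.37 and 7.99 in KO arrays, against 7.40, 7.55, 7.60 and 7.58 in WT arrays. It rose by 0.81 ± 0.13 (adjusted p 0.0103, but 0.0686 without KO array 1). It was the only called gene of the 16 tested on the glucocorticoid response list, of which 13 were higher in KO (median 0.27). By limma 8 of the 16 had an unadjusted p under 0.05, against 7.49% of all genes tested. Of the 16, 2 did not overlap, against 4.45% of all genes tested. Angptl4, an inhibitor of lipoprotein lipase, also had no overlap, with 7.61, 7.50, 7.41 and 7.20 in KO arrays, against 6.36, 6.87, 6.74 and 6.63 in WT arrays, a change of 0.78 ± 0.20 (adjusted p 0.198). Cdkn1a (0.72), Fkbp5 (0.46), Errfi1 (0.41) and Per1 (0.38) overlapped between the groups, while Sgk1 (0.03) and Dusp1 (-0.02) lay near 0. The mean of the list was 7.97, 7.69, 7.81 and 7.56 in KO arrays 1 to 4, against 7.32, 7.66, 7.41 and 7.48 in WT arrays 1 to 4, with WT array 2 above KO array 4. Fam107a, an actin-binding protein gene, rose by 0.48 ± 0.09 (adjusted p 0.0194), with KO arrays at 6.60 to 7.00 and WT arrays at 6.15 to 6.44. Its call was lost without KO array 1 or 2 or WT array 1 or 4 (adjusted p 0.0602 to 0.14).

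Kcnd2, which encodes the A-type potassium channel Kv4.2, read 4.90, 5.60, 5.70 and 5.74 in KO arrays 1 to 4, against 6.74, 6.53, 6.92 and 7.00 in WT arrays 1 to 4. It fell by 1.31 on the log2 scale (± 0.19, adjusted p 0.00547), to 0.402 times the WT level, and was lowest in KO array 1, the one KO array under 5. It was the only called gene of 18 tested potassium channel genes, of which 12 were higher and 6 lower in KO (median 0.08). Its relatives Kcnd1 and Kcnd3 differed by 0.07 and 0.26. Non-overlapping and higher in KO were Kcnip1 (0.96 ± 0.28, adjusted p 0.29) and Kcnip4 (0.48 ± 0.15, adjusted p 0.346), accessory subunits that bind Kv4 channels, and Kcnj6 (0.47), an inward rectifier. Kcnip1 read 6.87, 6.37, 6.40 and 7.11 in KO arrays, against 6.22, 5.11, 5.35 and 6.26 in WT arrays. Kcnk9, a background channel of mouse glomerulosa cells, differed by -0.32. Cachd1, an auxiliary subunit of voltage-gated calcium channels, fell by 0.48 (± 0.09, adjusted p 0.0325), with KO arrays at 7.37 to 7.70 and WT arrays at 7.95 to 8.04. Its call was kept only without KO array 2 among the 8 fits that left out 1 array, and was otherwise lost at adjusted p 0.0712 to 0.195.

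Mboat1, which reacylates lysophospholipids in membranes, read 5.34, 5.53, 5.96 and 5.38 in KO arrays, against 6.33, 6.28, 6.59 and 6.68 in WT arrays. It fell by 0.92 (± 0.13, adjusted p 0.00547). The other 11 tested phospholipid acyltransferases were not called, and apart from Agpat2 (-0.71) they lay between -0.10 and 0.13. Agpat2 is abundant in adipose tissue and overlapped between the groups, with KO arrays at 9.08, 8.25, 8.14 and 8.21, against 8.91, 9.88, 9.56 and 8.17 in WT arrays.

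Efemp1, which encodes the matrix glycoprotein fibulin-3, read 9.72, 9.49, 9.55 and 9.43 in KO arrays, against 8.97, 9.00, 8.91 and 9.29 in WT arrays. It rose by 0.51 ± 0.09 (adjusted p 0.0296), and the call was lost without KO array 1 or 3 or WT array 1, 2 or 3 (adjusted p 0.0737 to 0.195). It was the only called gene of 16 tested matrix genes (median 0.01). Its relative Fbln5 differed by 0.54 with overlap, and Col1a1 (-0.04), Col3a1 (-0.07) and Sparc (0.00), the main fibrillar collagens and a collagen-binding protein, lay near 0. Mest, a paternally expressed imprinted gene, fell by 0.55 (± 0.10, adjusted p 0.0325), with KO arrays at 7.57 to 8.04 and WT arrays at 8.24 to 8.52. Its call was lost without KO array 1 or WT array 2, 3 or 4 (adjusted p 0.104 to 0.195), and with the replicate block (adjusted p 0.0736). Of 14 tested imprinted growth genes it was the only one called, with Dlk1 (0.29) and Peg3 (0.28) higher and not overlapping, and Igf2 at 0.17.

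The remaining called genes were smaller or less characterised. Prrg3, a transmembrane Gla protein gene, read 9.10, 9.03, 8.23 and 8.20 in KO arrays, against 7.59, 7.73, 7.66 and 7.61 in WT arrays, and rose by 0.99 ± 0.18 (adjusted p 0.0183). KO arrays 1 and 2 stood above KO arrays 3 and 4, and its call was lost without KO array 1 or 2 or WT array 1, 3 or 4 (adjusted p 0.0538 to 0.118). Gm19389, a predicted gene with no position in the annotation used, rose by 1.05 ± 0.20 (adjusted p 0.0325), with KO arrays at 7.06 to 7.74 and WT arrays at 6.00 to 6.72. Btbd35f1 of the X chromosome fell by 0.45 (± 0.09, adjusted p 0.0368), with KO arrays at 5.02 to 5.33 and WT arrays at 5.47 to 5.95. It belongs to a family of similar X-linked genes, and reading of other copies by its probe set was not tested. Snhg18, a small nucleolar RNA host gene, fell by 0.54 (± 0.10, adjusted p 0.0368), with KO arrays at 6.00 to 6.47 and WT arrays at 6.75 to 6.96. Snord123 lies within the Snhg18 gene on chromosome 15 and differed by -0.86 ± 0.17 (adjusted p 0.0506), with no overlap, so the 2 probe sets are not independent. Without 1 array the calls of these 3 were lost in 5 of 8 fits for Gm19389 (adjusted p 0.0675 to 0.195), 6 for Btbd35f1 (0.0529 to 0.195) and 6 for Snhg18 (0.063 to 0.221). KO array 1 and WT arrays 2, 3 and 4 were such arrays for each of them, besides KO array 4 for Gm19389, KO arrays 2 and 3 for Btbd35f1, and KO array 2 and WT array 1 for Snhg18. Snhg18 also lost its call without a filter (adjusted p 0.0504), with the replicate block (0.0558) and with array weights (0.0545), and Btbd35f1 without a filter (0.0534) and with a trended, robust eBayes prior (0.0509).

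Other genes separated the groups without a call. Higher in KO were Adcyap1, the gene of the neuropeptide PACAP (1.52 ± 0.51, adjusted p 0.436), and Nxph1, of a secreted neurexin ligand (1.42 ± 0.31, adjusted p 0.0795). Adcyap1 read 8.25, 4.79, 5.18 and 6.24 in KO arrays, against 4.74, 4.77, 4.61 and 4.24 in WT arrays, so the difference lay mainly in KO arrays 1 and 4 and KO array 2 was just above WT. Nxph1 read 7.10, 5.76, 5.65 and 6.93 in KO arrays, against 5.29, 5.02, 4.61 and 4.84 in WT arrays, with KO arrays 1 and 4 the highest, as for Akr1c18. Cckar, a cholecystokinin receptor gene, read 6.04, 5.45, 5.78 and 5.95 in KO arrays, against 5.11, 4.51, 4.61 and 4.92 in WT arrays (1.02 ± 0.21, adjusted p 0.0546). The others were Apln (1.29), the apelin ligand, Rtl4 (1.03), Xpnpep2 (0.98), Kcnip1, Serpina3n (0.95), Naip2 (0.93) and the medulla gene Pnmt (0.90). Lower in KO were Vsnl1 (-1.42 ± 0.40, adjusted p 0.265), a calcium sensor gene of the glomerulosa, Tmem178 (-1.17), Cdh6 (-1.03 ± 0.21, adjusted p 0.0546), a cadherin, and Tnc (-0.95), the matrix protein tenascin C. Ecrg4 (-0.84), Lmo7 (-0.84 ± 0.17, adjusted p 0.0536) and Snord123 completed these, besides 2 olfactory receptor genes, Olfr330 and Olfr329, whose arrays were nearly all under 5.

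For the list counts that follow, 7.49% of all genes tested had an unadjusted p under 0.05 and 4.45% did not overlap. Of 9 tested genes of PKA subunits and inhibitors 0 were called, Prkar1a included (2 at an unadjusted p under 0.05). The other 8 lay between -0.19 and 0.15, among them Prkar1b (0.08), Prkar2a (-0.19), Prkar2b (0.06), Prkaca (-0.07) and Prkacb (-0.02). Of 14 phosphodiesterases, which break down cyclic nucleotides, 0 were called and the changes lay between -0.15 and 0.33 (median -0.02). The highest was Pde7a, at 0.33 for the probe set used and -0.13 for its second. Pde4b was the non-overlapping one, with a change of 0.22 and with all WT arrays just under 5. Of 7 adenylyl cyclases 0 were called (median 0.11). Of 20 CREB targets and immediate early genes 0 were called, 8 being higher and 12 lower in KO (median -0.02, 1 at an unadjusted p under 0.05). Nr4a1, an orphan nuclear receptor induced by ACTH, read 9.53, 9.61, 9.87 and 9.24 in KO arrays, against 8.77, 9.07, 7.69 and 9.72 in WT arrays, a change of 0.75 ± 0.46. Its WT arrays spanned a wider range than its KO arrays, and Fos (0.00), Crem (-0.13) and Sik1 (0.28) lay near 0 or overlapped.

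**Figure D2:**
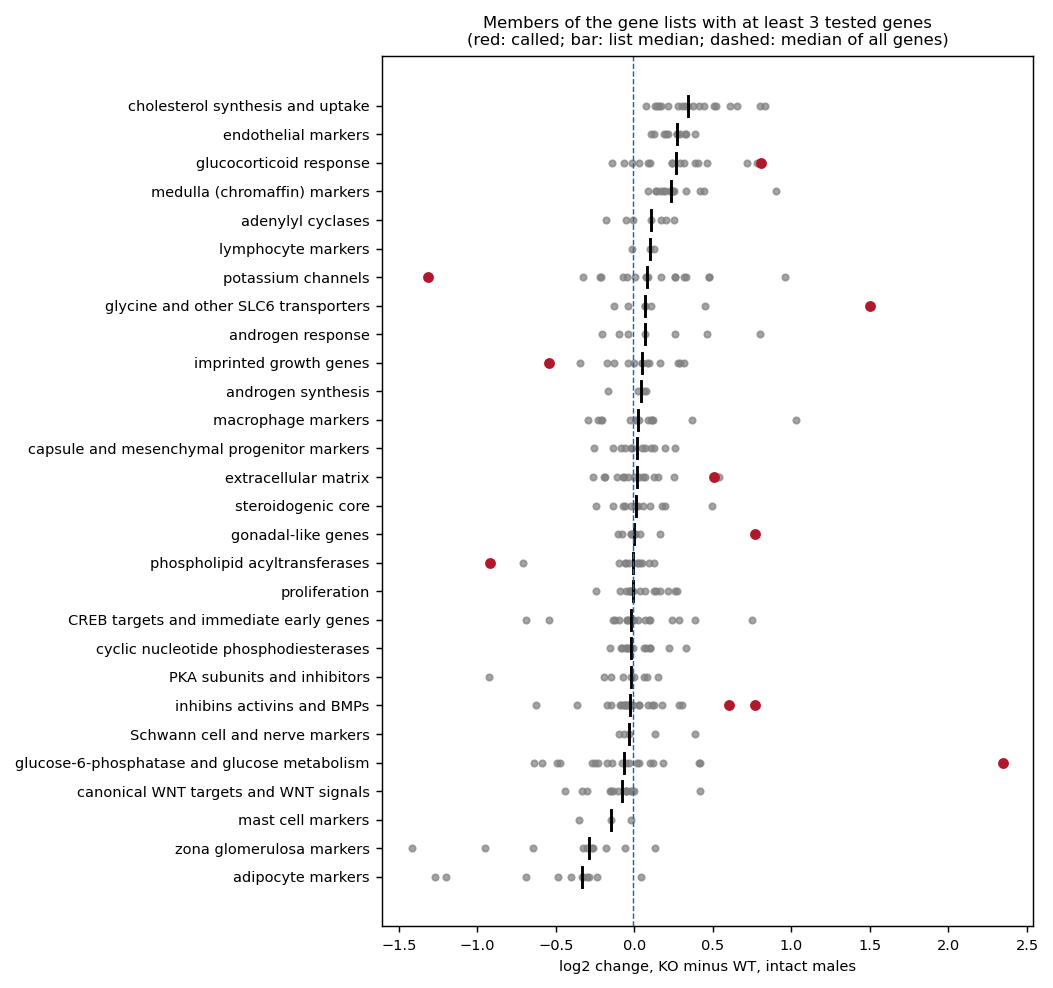
Log2 change, KO minus WT in intact males (horizontal axis), of each tested member of the gene lists with at least 3 tested genes (1 row a list, grey points; red points are called genes; black bar, list median; dashed line, median of all genes tested). Cholesterol, endothelial and medulla genes lie to the right of 0, and glomerulosa and adipocyte genes mostly to the left. Of the called genes G6pc, Slc6a5 and Kcnd2 lie farthest from the rest of their lists, while uncalled genes lie as far out as Efemp1, Zbtb16 and Bmp4 on theirs (Fbln5 at 0.54, Angptl4 at 0.78 and Id1 at -0.62).

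Steroid synthesis genes were close to level. Of 13 tested genes of the steroidogenic core 0 were called (1 at an unadjusted p under 0.05, median 0.01): Star, Cyp11a1, Cyp21a1 and Cyp11b1, which lead to corticosterone, differed by 0.01, 0.02, 0.00 and -0.02. Fdx1, the ferredoxin that carries electrons to mitochondrial steroid hydroxylases, read 10.84, 10.42, 10.76 and 10.74 in KO arrays, against 10.25, 10.40, 10.13 and 10.02 in WT arrays, a change of 0.49 ± 0.11 (adjusted p 0.126). Its groups did not overlap, by the narrow gap between KO array 2 and WT array 2. Scarb1, the receptor for cholesterol uptake from lipoprotein, differed by 0.18, also with no overlap. All 19 tested genes of cholesterol synthesis and uptake were higher in KO (median 0.34), but 0 of them were called by limma (8 at an unadjusted p under 0.05) and 2 (Tm7sf2 and Ebp) had no overlap. Over all genes tested 7.49% had such a p and 4.45% had no overlap. Sqle, squalene epoxidase, read 8.97, 7.74, 8.35 and 8.75 in KO arrays, against 8.03, 8.02, 7.35 and 7.08 in WT arrays (0.83 ± 0.25, adjusted p 0.304). Cyp51 (0.80), Hsd17b7 (0.66) and Fdps (0.61) had the same order of KO arrays, with arrays 1 and 4 high and array 2 lowest. The list mean was 8.77, 7.99, 8.37 and 8.66 in KO arrays, against 8.15, 8.36, 7.93 and 7.80 in WT arrays, so KO array 2 lay below 2 of the WT arrays.

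Of 10 tested glomerulosa markers 9 were lower in KO (median -0.29) and 0 were called (2 at an unadjusted p under 0.05). Among the 9 is Cyp11b2, whose locus carries the Cre in KO alone. Vsnl1 read 7.16, 9.41, 9.32 and 8.68 in KO arrays, against 9.78, 9.91, 10.15 and 10.41 in WT arrays. Wnt4, a WNT ligand of the outer cortex, read 8.59, 8.91, 8.99 and 8.89 in KO arrays, against 9.05, 9.24, 9.17 and 9.12 in WT arrays, also with no overlap (-0.30 ± 0.14, adjusted p 0.669). Hsd3b6, the 3 beta-hydroxysteroid dehydrogenase of mouse glomerulosa, read 9.46, 11.67, 8.46 and 7.78 in KO arrays, against 9.03, 10.09, 9.93 and 10.91 in WT arrays (-0.65 ± 0.60), and KO array 2 was the highest of all 8. The list mean was lowest in KO arrays 1 (8.71) and 4 (8.95), followed by KO array 3 (9.24), while KO array 2 (9.57) lay among the WT arrays (9.35 to 9.77). Of 14 WNT targets and signals 13 were lower in KO, by little (median -0.08), and 0 were called (3 at an unadjusted p under 0.05). Nkd1 and Notum, inhibitors induced by WNT signalling, did not overlap: Nkd1 read 7.12, 7.30, 7.42 and 7.18 in KO arrays, against 7.73, 7.79, 7.54 and 7.73 in WT arrays (-0.44 ± 0.10, adjusted p 0.126), and Notum differed by -0.33. Lgr5, a receptor for R-spondins, was the member higher in KO (0.42, with overlap), and Axin2 and Lef1 differed by -0.06 and -0.13. The capsule and mesenchymal markers (median 0.02), androgen synthesis genes (0.04) and 17 proliferation genes (-0.01) held 0 called genes, with Mki67, the proliferation antigen, at 0.14.

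**Figure D3:**
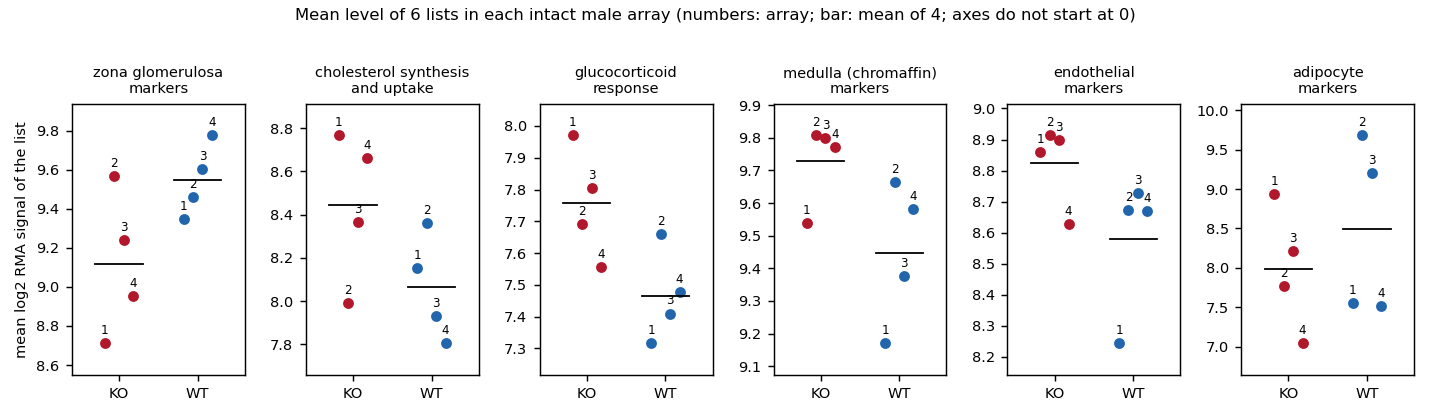
Mean log2 RMA signal of 6 gene lists in each array (vertical axes differ and do not start at 0), KO left and WT right, with array numbers and a bar at the mean of 4. KO arrays 1 and 4 are the lowest for glomerulosa markers and the highest for cholesterol genes; medulla and endothelial means are lowest in WT array 1, and adipocyte means are widely spread in both groups.

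Of the marker lists of other cells, those of the medulla, endothelium and fat lay mostly to 1 side. All 14 tested medulla markers were higher in KO (median 0.23), with 0 called, 2 at an unadjusted p under 0.05 and 3 not overlapping (Pnmt, Chga and Syt1). Over all genes tested 7.49% had such a p and 4.45% did not overlap. Pnmt, which makes adrenaline and is induced by glucocorticoids, read 9.56, 9.14, 9.54 and 9.41 in KO arrays, against 8.83, 8.73, 7.96 and 8.52 in WT arrays (0.90 ± 0.28, adjusted p 0.346), and Th differed by 0.44 with overlap. The mean of the medulla markers was 9.54 to 9.81 in KO arrays, against 9.17 to 9.66 in WT arrays. With that mean as a covariate 11 genes were called, and Prrg3, Efemp1, Cachd1, Gm19389, Btbd35f1 and Snhg18 no longer were. All 11 endothelial markers were higher in KO (median 0.27, 0 called). Of these 6 had an unadjusted p under 0.05, against 7.49% of all genes tested. Their means were 8.63 to 8.91 in KO arrays, against 8.24 to 8.73 in WT arrays. Tek, the angiopoietin receptor gene, did not overlap (0.39 ± 0.12, adjusted p 0.304). Of 11 adipocyte markers 10 were lower in KO (median -0.33, 0 called, 0 at an unadjusted p under 0.05). Ucp1, the thermogenic protein gene of brown fat, read 9.53, 4.77, 5.17 and 4.90 in KO arrays, against 4.69, 11.40, 8.92 and 4.16 in WT arrays, and Cidea followed it, so KO array 1 and WT arrays 2 and 3 were the high ones. The mean of the adipocyte markers was 7.04 to 8.94 in KO arrays, against 7.51 to 9.68 in WT arrays. With that mean as a covariate 25 genes were called in place of 16. The part of the medulla, endothelial and adipocyte tissue in the called genes was otherwise not tested. Of 14 macrophage markers 9 were higher and 5 lower in KO (median 0.02), and the chitinase-like gene Chil3 was high in KO array 1 alone, at 6.14, against 3.91 to 4.29 in the other KO arrays and 3.27 to 4.21 in WT arrays. Hdc, histidine decarboxylase of mast cells, differed by -0.35 with no overlap. Lists of lymphocyte (median 0.10), mast cell (-0.15), Schwann cell (-0.04) and androgen response genes (0.07) also held 0 called genes.

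The spread between arrays was of like size in both groups: the median SD per gene was 0.118 in KO and 0.125 in WT, and the SD was larger in KO for 6636 genes (46.0%). A few genes were wide in KO and narrow in WT. Besides Akr1c18 and Adcyap1 these included Atp12a, a proton pump gene (7.17, 4.39, 5.11 and 5.56 in KO arrays, against 4.18 to 4.40 in WT arrays), and Slit1, an axon guidance gene (6.44, 5.30, 7.78 and 7.43 in KO arrays, against 7.39 to 7.70 in WT arrays). Sv2c, a synaptic vesicle gene, read 6.38, 5.04, 5.87 and 6.81 in KO arrays, against 5.26 to 5.45 in WT arrays, and the olfactory receptor gene Olfr810 read 6.11, 3.83, 4.42 and 4.97 in KO arrays, against 3.79 to 4.06 in WT arrays. KO array 2 was the lowest KO array for Adcyap1, Atp12a, Slit1, Sv2c and Olfr810. Among the widest genes in WT were the fat genes Ucp1 and Cidea and Elovl3, a fatty acid elongase (3.60 to 9.90 in WT arrays). These genes were named for their spread and have no test.

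The neighbourhood of the Cre was examined because the KO and WT alleles around Cyp11b2 can differ. Among the 10 tested genes on each side of Cyp11b2 on chromosome 15, 0 of 20 were called, 14 were higher and 6 lower in KO, and the median change was 0.04. The 2 of 20 that did not overlap were Ly6a2 (0.30) and 2810039B14Rik (0.17), with 4.45% of all genes tested not overlapping. The largest change was in Ly6m, of a family of small surface proteins (0.89 ± 0.28, adjusted p 0.38), followed by Lynx1 (-0.46). Cyp11b1, the nearest gene on 1 side, differed by -0.02, at a signal near the top of the scale as given above.

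Between KO and WT, 609 genes were called in GDX males (4.23%) and 4694 in females (32.6%), with other control genotypes as given above. Of the 325 genes called higher in KO GDX males (2.26% of all), 229 (70.5%) were also higher in KO intact males, and of the 284 called lower (1.97%) 228 (80.3%) were also lower, but the changes were smaller: the medians were 0.08 and -0.07 here, against 0.50 and -0.39 in GDX males, where the genes had been picked for their change. Of the genes called in females the share was 55.4% of 2001 higher (13.9% of all) and 61.3% of 2693 lower (18.7%). Over all genes 6634 were higher and 7777 lower in KO intact males. No array is shared between these comparisons, but all arrays entered the same filter and spread. Of the 16 called genes, 10 were also called in the same direction in GDX males: Akr1c18, Inha, Efemp1, Btbd35f1, Cachd1 and Mest were not. In females 9 were called in the same direction.

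**Figure D4:**
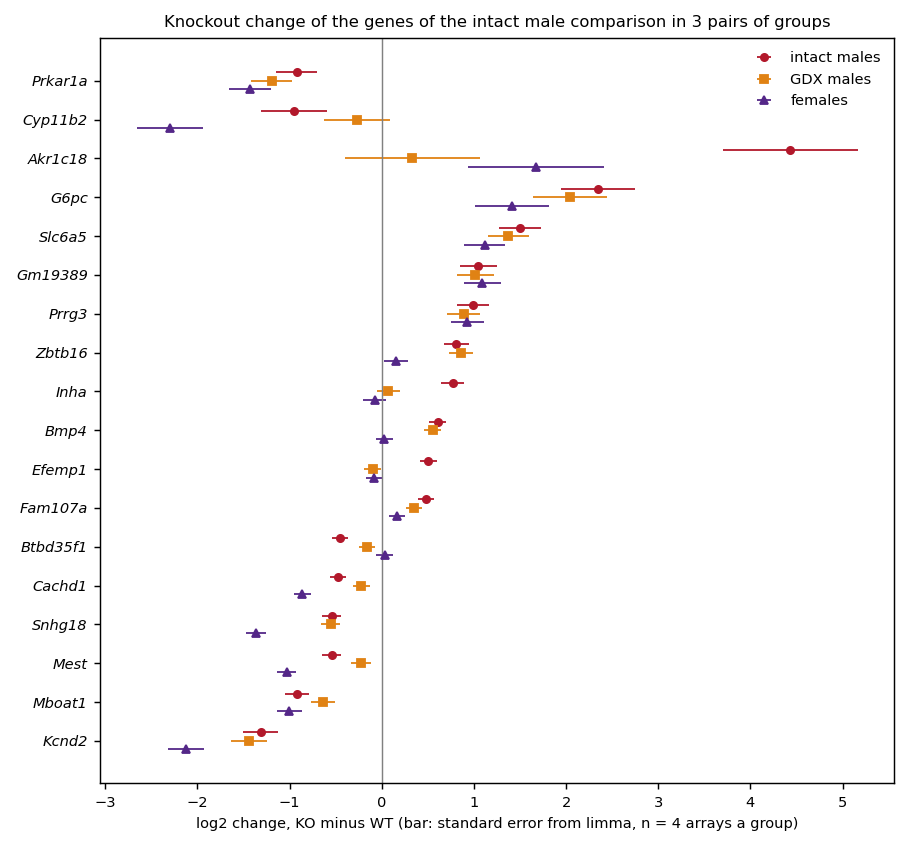
Log2 change, KO minus WT (horizontal axis; bars are standard errors from limma, n = 4 arrays a group), of Prkar1a, Cyp11b2 and the 16 called genes in intact males (circles), GDX males (squares) and females (triangles). Inha, Efemp1 and Akr1c18 have their largest change in intact males (for Akr1c18, GDX males of both genotypes were already above 12). So do Slc6a5, G6pc, Prrg3, Fam107a, Bmp4 and Btbd35f1, and the called genes were picked for their change in intact males. Bmp4 and Zbtb16 are among those that lie close together in both kinds of males. All called genes except Inha, Efemp1 and Btbd35f1 lie on the same side of 0 in all 3.

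Set beside the other groups, the lists differed in size. For the counts below, 0.111% of all genes tested were called in intact males, 4.23% in GDX males and 32.6% in females. The median change of the cholesterol genes was 0.34 in intact males, 0.35 in GDX males and 1.36 in females, with 0, 2 and 18 of 19 called. For the glomerulosa markers it was -0.29 in intact males, -0.33 in GDX males and -1.26 in females, with 0, 2 and 9 of 10 called. For the glucocorticoid response genes it was 0.27, 0.26 and 0.45 in the same order, with 1, 3 and 10 of 16 called. The medulla markers had medians of 0.23 in intact males, -0.01 in GDX males and -0.57 in females, with 0, 0 and 11 of 14 called. The endothelial markers had medians of 0.27, -0.01 and -0.13, with 0, 0 and 1 of 11 called. These medians are descriptions, and a difference between groups of mice was not tested for a list.

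The difference between the knockout effects was tested as an interaction. Control genotype also differs between the groups, as given above, so its effect cannot be told apart from that of sex or gonadectomy. None of the 16 called genes had an effect in intact males that differed from that in GDX males by this test: for Akr1c18 the change was 4.43 in intact and 0.33 in GDX males (difference 4.10, adjusted p 0.181), for Inha 0.77 and 0.07 (adjusted p 0.178) and for Efemp1 0.51 and -0.10 (adjusted p 0.112). The Akr1c18 changes were measured at opposite ends of the scale: GDX males were at 12.62 to 12.76 in KO and 12.04 to 12.66 in WT, close to the level of Star, while WT intact males were all under 5, so their sizes cannot be compared directly. Against females, 9 of the 16 differed, with 16.0% of all genes tested. The 16 had been picked for their change in intact males, and this test uses the same arrays again. A difference is therefore more likely among them. Bmp4 rose by 0.60 in intact males with a change of 0.02 in females (difference 0.58, adjusted p 0.00539). For Inha the changes were 0.77 and -0.08 (difference 0.85, adjusted p 0.00287), for Efemp1 0.51 and -0.08 (0.59, adjusted p 0.00571) and for Btbd35f1 -0.45 and 0.03 (-0.48, adjusted p 0.0122). Snhg18 fell in both, by 0.54 in intact males and by 1.36 in females (difference 0.82, adjusted p 0.00126). These 5 kept their call in all 16 fits that left out 1 array. Zbtb16 (difference 0.65, adjusted p 0.0226) lost it without WT female array 2, KO female array 4 or WT array 1 (adjusted p 0.0509 to 0.0556). Mest (0.49, adjusted p 0.0282) lost it without KO array 2 or 3, WT array 1, KO female array 4 or WT female array 1 (adjusted p 0.0556 to 0.0681). Cachd1 (0.39, adjusted p 0.0433) kept it in 4 and Kcnd2 (0.81, adjusted p 0.0474) in 5 of the 16 fits, with adjusted p up to 0.0977 and 0.108. With all arrays kept, Kcnd2 also lost it in 4 of 8 other settings (only the arrays of the groups compared, no filter, another round of quantile normalization, and the replicate block) and Cachd1 in 2 (no filter and that normalization). Mest, Cachd1 and Kcnd2 fell in both, and less in intact males than in females. Slc6a5, Mboat1, Prrg3, G6pc and Gm19389 were called in both sexes, and no difference was called for them.

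Over all genes 4 interactions with gonadectomy were called (0.0278%), 1 with the effect higher (0.00694%) and 3 with it lower in intact males (0.0208%), none of them a gene called in intact males. Bpifc, of a lipid-binding protein family, read 4.25 in KO and 3.81 in WT intact males on average, with 7.39 in KO and 4.16 in WT GDX males (difference of the effects -2.79 ± 0.43, adjusted p 0.0117). Acpp, the prostatic acid phosphatase gene, averaged 5.64 in KO and 5.39 in WT intact males, with 6.29 in KO and 8.46 in WT GDX males (2.42 ± 0.37, adjusted p 0.0117). Ceacam1, a cell adhesion receptor gene, averaged 9.67 in KO and 9.62 in WT intact males, with 11.15 in KO and 9.60 in WT GDX males (-1.50 ± 0.25, adjusted p 0.02). Eda, a ligand of the tumour necrosis factor family, averaged 7.09 in KO and 7.28 in WT intact males, with 7.14 in KO and 6.68 in WT GDX males (-0.64 ± 0.11, adjusted p 0.02). Bpifc and Acpp kept their call in all 16 fits without 1 array. Ceacam1 lost it in 5 (without KO array 3, WT GDX arrays 2 or 3, or KO GDX arrays 3 or 4) and Eda in 7 (without KO array 1 or 3, WT array 3 or 4, WT GDX array 2, or KO GDX arrays 3 or 4), at adjusted p 0.0518 to 0.0793. Ceacam1 also lost it when only the arrays of the groups compared were fitted (adjusted p 0.114). The count of 4 itself moved to 88 without KO GDX array 1, 30 without WT GDX array 1 and 7 without KO array 2, and to 2 without KO array 3, WT GDX array 2 or KO GDX array 3 or 4.

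Against females 2302 interactions were called (16.0%), 1266 with the effect higher (8.78%) and 1036 with it lower in intact males (7.19%). None of the 10 largest was called in intact males. Sv2c averaged 6.03 in KO and 5.34 in WT intact males, with 9.71 in KO and 5.20 in WT females (difference of the effects -3.82 ± 0.69, adjusted p 0.00126). Bpifc differed by -3.98, Ptprz1, a receptor phosphatase gene, by -3.79, St8sia5, a sialyltransferase gene of gangliosides, by -3.69, and Spink8, a protease inhibitor gene, by -3.48. Fetub (-3.28), Tgm3 (-3.27), Olfr810 (-3.18) and Elapor1 (-2.78) followed. Bpifc, Spink8 and Olfr810 lay under 5 in at least 3 of 4 arrays of both intact male groups, so a small change there would not be readable. In the other direction Hsd3b6 averaged 9.34 in KO and 9.99 in WT intact males, with 6.56 in KO and 10.04 in WT females (2.83 ± 0.85, adjusted p 0.028). Its call was lost without KO female array 3 or 4, WT female array 2 or WT array 1 (adjusted p 0.0523 to 0.0667), and when only the arrays of the groups compared were fitted (adjusted p 0.0523).

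**Figure D5:**
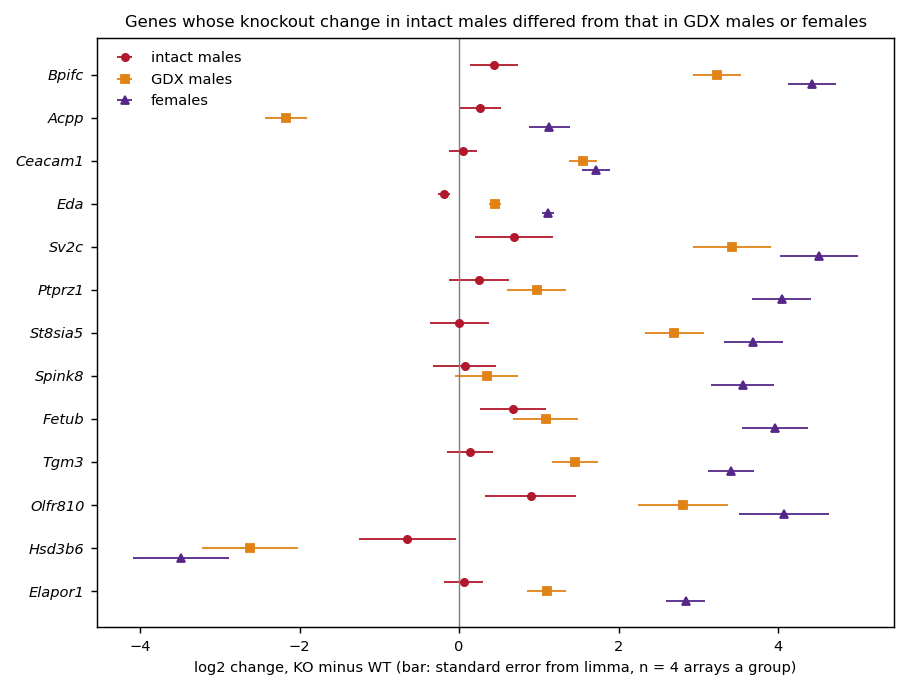
Log2 change, KO minus WT (horizontal axis; bars are standard errors from limma, n = 4 arrays a group), in intact males (circles), GDX males (squares) and females (triangles) of the genes whose knockout effect in intact males differed most from that in GDX males or females. In intact males the changes lie between -0.65 (Hsd3b6) and 0.90 (Olfr810), while Acpp is lower in KO among GDX males alone.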

How the data were processed

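RNA of whole adrenal glands (500 ng per array, Affymetrix WT PLUS labelling, per the labels' protocols) was read in 24 arrays of 6 groups of 4. The deposited table holds log2 signals from RMA, which corrects background and normalizes across arrays, per the submitters' processing notes; no version is stated in the sources used here. It was used as deposited. Of 32202 probe sets 22943 have 1 gene symbol, 1731 several and 7528 none, and the last 2 kinds were left out. Each gene was read by its probe set of highest mean. Positions and promoter windows are RefSeq GRCm38.p6.

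Comparisons were contrasts of the 6 group means, fitted together in limma (3.58.1, R 4.3.3) by lmFit and eBayes (18 residual and 3.41 prior degrees of freedom), with Benjamini-Hochberg adjustment over 14411 genes. The procedure was also run on simulated data with independent noise per value, which hold no array effects or differences in tissue content between glands. The number of arrays limits the precision, and p-values measure the spread between arrays labelled as biological replicates. No hybridisation batch is used here.

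The members and the 30 gene lists (412 symbols, 373 in the table, 338 tested) were chosen with earlier results of these data known. Named are Prkar1a, Cyp11b2, Akr1c18, all called genes, the 10 largest non-overlapping differences in each direction without a call, up to 4 members per list by size of change and the 10 largest interactions, predicted symbols aside except among called genes. Other members are named for their role, for the text's counts or for their spread, after their values were seen. Alternatives were the arrays fitted, the filter, a further normalization, the mean of probe sets, array weights, a replicate block, the eBayes prior, marker means as covariates and leaving out each array.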

Additional observations from a re-analysis of the deposited data

Results flagged for a closer look

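In 17 of 212 groups of 4 arrays tested 1 array stood far from the other 3; chance flags about 1 in 20 groups. Among KO arrays these were array 1 for Kcnd2 (4.9, against 5.6 to 5.74 in the others), G6pc (8.81), Agpat2 (9.08), Th (10.97), Chil3 (6.14), Ucp1 (9.53) and the mean of the medulla markers (9.54), and array 4 for Fbln5 (7.88) and Syt1 (8.71). Among WT arrays they were array 1 for Mest (8.24), Apln (5.89), Susd3 (5.71) and the mean of the endothelial markers (8.24), array 3 for Cachd1 (8.04), array 4 for Olfr330 (5.83) and the mean of 3 mast cell markers (6.09), and array 2 for the mean of 3 lymphocyte markers (6.04).

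Further results differ between groups by the interaction test, given as the knockout effect in intact males minus that in the other group. Against GDX males these were Bpifc (-2.79), Acpp (2.42), Ceacam1 (-1.50) and Eda (-0.64). Against females the effects were lower in intact males for Bpifc (-3.98), Sv2c (-3.82), Ptprz1 (-3.79), St8sia5 (-3.69), Spink8 (-3.48), Fetub (-3.28), Tgm3 (-3.27), Olfr810 (-3.18) and Elapor1 (-2.78). The same sign was seen for Chil3 (-2.76), Hdc (-2.54), Nxph1 (-1.91), Hsd17b7 (-1.77), Fdps (-1.72), Sqle (-1.66), Cyp51 (-1.57), Id1 (-0.92), Fdx1 (-0.76), Scarb1 (-0.76) and Btbd35f1 (-0.48). Most of these negative differences were smaller rises in intact males. Hdc, Id1 and Btbd35f1 were instead lower in KO intact males. The difference was positive for Hsd3b6 (2.83), Retn (2.30), Vsnl1 (2.16), Rtl4 (1.56), Cdh6 (1.22), Lgr5 (1.12), Npy (1.10), Slc6a4 (1.09), Cckar (1.05) and Ecrg4 (1.03). Of these, Hsd3b6, Retn, Vsnl1, Cdh6 and Ecrg4 fell in both, and less in intact males (Vsnl1 by a change of -1.42, against -3.58 in females). The others were higher in KO intact males and lower in KO females. Smaller positive differences were found for Th (0.92), Kcnj6 (0.86), Inha (0.85), Syt1 (0.84), Snhg18 (0.82), Kcnd2 (0.81), Dlk1 (0.72), Kcnip4 (0.72), Wnt4 (0.71), Zbtb16 (0.65), Efemp1 (0.59), Bmp4 (0.58), Tek (0.52), Mest (0.49), Nkd1 (0.46) and Cachd1 (0.39). Among these, Snhg18, Kcnd2, Wnt4, Mest, Nkd1 and Cachd1 fell in both, and less in intact males. Besides the genes described above, not all calls against females held with 1 array left out. Dlk1 kept its call in 5 of 16 fits, Nkd1 and Slc6a4 in 7, Tek in 8, Th in 9 and Id1 in 10. Wnt4 kept it in 14, and Fdps, Kcnip4, Kcnj6 and Npy in 15. The others not described above kept it in all 16. Controls differ in genotype between these groups: WT intact males carried no Cre, while WT females and WT GDX arrays 2, 3 and 4 did.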

How the results depend on the processing

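The count of 16 called genes went to 0 with limma on the 8 intact male arrays alone (1088 at an unadjusted p under 0.05) and to 25 with the adipocyte marker mean as a covariate. It was 11 with the medulla marker mean, 15 without a filter, 22 with the stricter filter, 23 after another round of quantile normalization and 19 with array weights. Leaving out each array gave 4 (without KO array 1) to 24 genes (without KO array 4). The 4 interactions with gonadectomy became 9 with only the arrays of those groups and 45 with array weights, and 2 (without KO array 3, WT GDX array 2, KO GDX array 3 or KO GDX array 4) to 88 (without KO GDX array 1) with 1 array left out. The 2302 interactions against females, whose controls also differ in genotype, ranged from 1615 to 2481 with 1 array left out. For Prkar1a the change was -1.12 to -0.59 with 1 array left out, and it passed the test only without KO array 3. Ucp1 (-1.20) reversed to 0.24 with the adipocyte covariate and to 0.17 without WT array 2, and ranged down to -2.35 (without KO array 1). The cause of these shifts was not tested.

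The replicate numbers do not pair the arrays, since deviations of same-numbered KO and WT arrays correlated at -0.17, -0.14, 0.02 and -0.05. With the replicate block 15 genes were called between KO and WT, besides 5 interactions with gonadectomy and 2144 against females. Under it Prkar1a had adjusted p 0.208 (0.16 without the block) and Cyp11b2 0.592 (0.523 without it). The block cannot move a KO minus WT change here, since every number occurs once in every group. Mest and Snhg18 lost their call under it. Counting the remaining results under the other settings, 808 values kept their direction and side of the threshold, 14 gained and 30 lost a call. With 1 array left out these numbers were 751, 8 and 64. These totals include genes without a call, which cannot lose one, so they do not measure how firm the calls are. Among the called genes, Bmp4 kept its call in 8 of 8 fits without 1 array, but Cachd1 in 1 of 8. Signals under log2 5 are too dim to read a change in.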
